A study of Homo sapiens with 6 samples.

Results

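Tetrahydrobiopterin is a pterin cofactor that cells make from GTP. GCH1 (GTP cyclohydrolase 1) opens the ring of GTP in the first step of synthesis, PTS (6-pyruvoyltetrahydropterin synthase) acts next, and SPR (sepiapterin reductase) carries out the last reductions. When the cofactor has served an aromatic amino acid hydroxylase it leaves as a carbinolamine, which PCBD1 dehydrates and QDPR (quinoid dihydropteridine reductase) helps return to tetrahydrobiopterin. In human monocytes and macrophages the pathway is best known for the induction of GCH1 by interferon gamma, after which these cells release neopterin. The 5 enzymes were taken by symbol from the deposited expression table, and all 5 were among its 18806 genes. They were brought together around SPR, which was chosen by its TPM in these same libraries, where its increase with METTL1 guides over the control guide was among the largest. The differences between guide and control libraries that chose SPR are therefore given for the 5 enzymes as a description, without a test, and nothing is supported with them.

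The libraries came from Mono-Mac-6, an acute myeloid leukaemia line of monocytic type with the MLL-AF9 fusion, and poly(A)+ RNA was sequenced. All groups derive from 1 clone carrying Cas9 that received a guide RNA by lentivirus, was selected with hygromycin B at 200 µg/ml and blasticidin at 10 µg/ml, and was collected about 8 to 10 days after transduction. The groups were sgMETTL1.6 and sgMETTL1.3, with guides against the tRNA methyltransferase gene METTL1, and sgNS, with the control guide, each with 2 libraries and 6 in all. The names of all 6 data columns also carry the letters EV, which the labels do not explain. A single clone was used, so clones could not be compared. The labels do not say whether the libraries of a group were separate cultures, so the spread behind each p-value is that between libraries and may be technical.

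METTL1 mRNA stood at 11.15 and 11.69 TPM in the sgMETTL1.6 libraries, at 18.29 and 16.56 TPM in the libraries labelled sgMETTL1.3 and at 15.38 and 13.89 TPM in the sgNS libraries. The libraries labelled sgMETTL1.3 thus held no less METTL1 mRNA than the control libraries. Small insertions or deletions at a Cas9 cut need not lower a transcript, so neither editing nor the loss of protein can be read from these values. Of 12 markers of monocytic leukaemia, 10 reached a mean of 1 TPM, with LYZ between 9206 and 11419 TPM. CD14 (0.22 to 0.90 TPM) and CSF1R (0.45 to 0.86 TPM), which mark monocytes, stayed under 1 TPM in every library. Of 8 markers of other cell types, 7 were under 1 TPM in every library, and the exception was PECAM1 (68.59 to 100.05 TPM), which monocytes also express. The summed level of these 8 was 69.35 to 100.9 TPM in the guide libraries and 71.34 to 74.64 TPM in the sgNS libraries, nearly all of it PECAM1, and its part in the results was not tested.

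Values are TPM, the estimated share of all transcripts that belongs to a gene, which takes transcript length into account and sums to the same total in each library. The read depth of each library is therefore unknown. Tests used limma on log2(TPM + 1) over the 10911 genes whose mean reached 1 TPM, and a gene was called at a Benjamini-Hochberg adjusted p under 0.05. All 5 enzymes passed this filter. SPR (ENSG00000116096.5) lies on the plus strand of chromosome 2, from 72887360 to 72892158 in GRCh38, and its single protein-coding transcript has 3 exons. By the same annotation, GENCODE 29, GCH1 lies on chromosome 14 (54842008 to 54902852), PTS on chromosome 11 (112226365 to 112269955), QDPR on chromosome 4 (17460261 to 17512234) and PCBD1 on chromosome 10 (70882280 to 70888784). SPR, QDPR and PCBD1 overlap no other gene in it. The span of GCH1 takes in FDPSP3, a transcribed pseudogene on the same strand, and the small RNA genes MIR4308 and RNU6ATAC9P. The span of PTS takes in PLET1 on the opposite strand, and the strand setting of the authors' counting is not given in the sources used here, so reads of these genes could be mixed.

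The promoters of SPR and PTS are shown because these enzymes had the largest and the smallest difference between guide and control libraries. Both sequences are from RefSeq (GRCh38.p14), 5′ to 3′, and run from 250 bases before the annotated transcript start to 50 bases after it. Capitals mark the GC box, GGGCGG on either strand.
SPR, plus strand, chr2:72887158-72887457: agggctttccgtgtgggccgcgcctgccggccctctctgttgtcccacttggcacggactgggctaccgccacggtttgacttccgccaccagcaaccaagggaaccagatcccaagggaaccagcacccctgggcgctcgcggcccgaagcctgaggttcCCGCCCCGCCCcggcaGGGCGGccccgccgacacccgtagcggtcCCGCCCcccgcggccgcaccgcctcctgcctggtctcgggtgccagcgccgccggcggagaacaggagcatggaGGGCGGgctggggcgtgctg
PTS, plus strand, chr11:112226178-112226477: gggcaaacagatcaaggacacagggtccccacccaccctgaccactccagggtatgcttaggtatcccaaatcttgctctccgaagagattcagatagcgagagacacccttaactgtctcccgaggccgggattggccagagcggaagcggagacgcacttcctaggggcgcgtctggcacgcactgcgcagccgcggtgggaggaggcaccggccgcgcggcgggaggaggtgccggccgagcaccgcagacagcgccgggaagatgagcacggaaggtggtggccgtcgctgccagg
The SPR window held 5 GC boxes, 4 before the RefSeq start and 1 after it, the first pair sharing a base. The GENCODE starts of SPR and PTS given above lie upstream of the RefSeq starts used for these windows. The PTS window held 0. Among 27305 promoter windows of the same length, 44.6% held a GC box. The SPR window was 74.0% G and C and the PTS window 65.7%, beside a median of 58.3% over all promoters. The QDPR window held 1 GC box and the PCBD1 window 3. The 4 windows with a sequence held no match to the other motifs searched on both strands, which were the MYC E-box CACGTG (in 7.43% of promoters), the ATF4 core TGATGNAA (3.67%), the heat shock element GAANNTTC (6.87%), the antioxidant element TGACNNNGC (13.6%) and the interferon gamma element TTCNNNGAA (7.88%). These are matches of letters in a short window, and nothing about a factor follows from them.

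In the synthesis arm the largest difference was that of SPR, which was chosen for it. SPR stood at 14.71 and 15.24 TPM in the sgMETTL1.6 libraries, at 18.00 and 16.06 TPM in the libraries labelled sgMETTL1.3 and at 5.49 and 6.14 TPM in the sgNS libraries. Every guide library lay well above both control libraries. The mean TPM was 2.58 times that of sgNS in the sgMETTL1.6 libraries and 2.93 times in the libraries labelled sgMETTL1.3. On the log2(TPM + 1) scale, where differences of low genes come out too small, the difference over both guides was 1.32 ± 0.065 (SE, n = 4 guide and 2 control libraries), the sixth largest increase among the 10911 genes. It was 1.23 with sgMETTL1.6 and 1.40 in the libraries labelled sgMETTL1.3, each with an SE of 0.075, and both share the same control libraries. These are bulk libraries, in which more cells with a transcript and more of it per cell cannot be told apart.

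Just above SPR in that order were ADAMTS1, a secreted metalloprotease (log2 change 1.58), HSPA8, the constitutive HSP70 (1.56), and CCR2, a chemokine receptor (1.35). Just below were HSPH1, an HSP110 chaperone (1.204), CPT1A, which starts mitochondrial fatty acid oxidation (1.13), and C3, the central complement component (1.11).

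GCH1, the entry enzyme of synthesis, was the lowest of the 5 in every library. It stood at 4.25 and 4.41 TPM in the sgMETTL1.6 libraries, at 6.08 and 6.94 TPM in the libraries labelled sgMETTL1.3 and at 3.70 and 3.68 TPM in the sgNS libraries. All guide libraries were above both controls, those of sgMETTL1.6 only by a small margin. The log2 difference from sgNS over both guides was 0.43 ± 0.074 (SE), made up of 0.18 with sgMETTL1.6 and 0.68 in the libraries labelled sgMETTL1.3.

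PTS, the middle step, stood at 32.57 and 27.68 TPM in the sgMETTL1.6 libraries, at 33.88 and 32.42 TPM in the libraries labelled sgMETTL1.3 and at 32.42 and 30.90 TPM in the sgNS libraries. The groups overlapped. Its log2 difference over both guides was -0.0046 ± 0.059 (SE), with a 95% interval of -0.13 to 0.12.

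In the recycling arm, QDPR was higher in the guide libraries and PCBD1 slightly so. QDPR stood at 28.48 and 32.01 TPM in the sgMETTL1.6 libraries, at 33.41 and 35.17 TPM in the libraries labelled sgMETTL1.3 and at 22.28 and 22.09 TPM in the sgNS libraries. No guide library came near the controls, and the log2 difference over both guides was 0.52 ± 0.052 (SE). PCBD1, the dehydratase, stood at 11.42 and 11.01 TPM in the sgMETTL1.6 libraries, at 10.16 and 10.68 TPM in the libraries labelled sgMETTL1.3 and at 9.18 and 9.94 TPM in the sgNS libraries. The lowest guide library was barely above the higher control library, and the log2 difference was 0.16 ± 0.059 (SE).

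Guide and control libraries did not overlap for 4 of the 5 enzymes, all higher with the guides. Over all 10911 genes the groups did not overlap for 60.2%, with 32.9% higher in every guide library. Since SPR was chosen for this difference, nothing is read from this count.

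**Figure D1:**
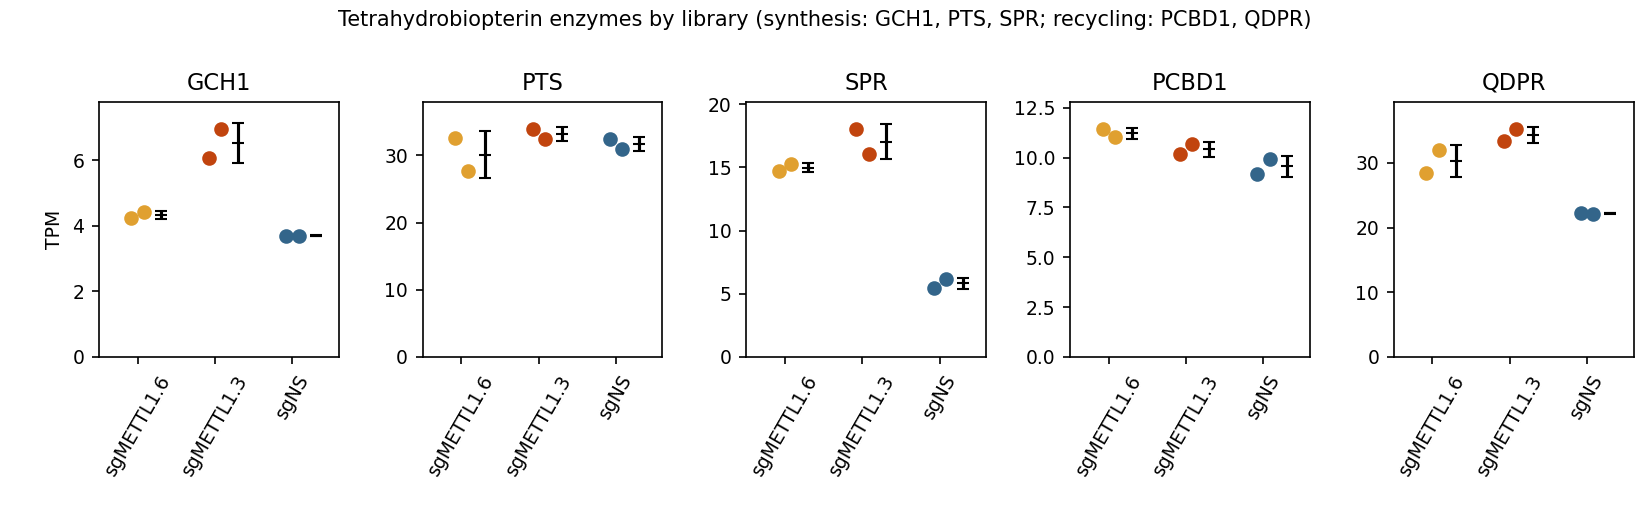
TPM of each enzyme in each library, one panel per enzyme with its own axis from 0. Points are libraries, and the bars beside them are the mean ± SD of 2 libraries. SPR sits between 14.71 and 18.00 TPM in the guide libraries and at 5.49 and 6.14 TPM in the sgNS libraries, while the PTS groups overlap.

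**Figure D2:**
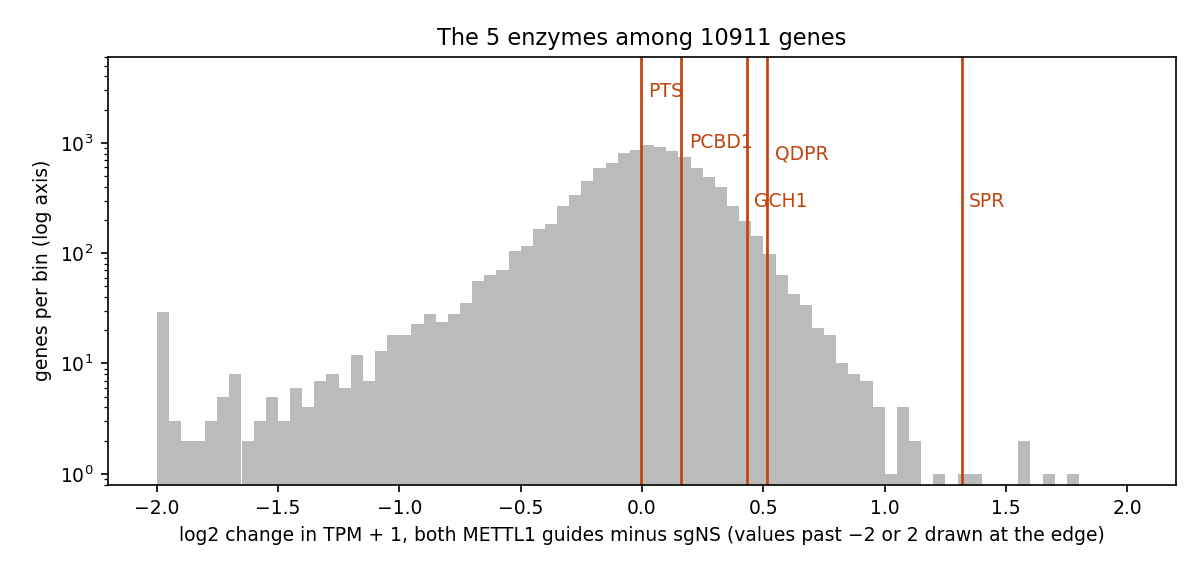
Distribution of the log2 change in TPM + 1 over 10911 genes, both METTL1 guides minus sgNS, with a log axis for the number of genes. Lines mark the 5 enzymes, with SPR at 1.32 in the sparse right tail and PTS at -0.0046 in the middle.

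The order of the 5 levels was not the same in guide and control libraries. TPM takes transcript length into account, so levels of different genes are set side by side as estimates. The place of PTS carries the possible mixing of its reads with those of PLET1. With sgMETTL1.6 the order was QDPR (30.2 ± 2.50 TPM, SD, n = 2), PTS (30.1 ± 3.46 TPM), SPR (14.98 ± 0.375 TPM), PCBD1 (11.2 ± 0.290 TPM) and GCH1 (4.33 ± 0.113 TPM). In the libraries labelled sgMETTL1.3 it was the same, with QDPR at 34.3 ± 1.24 TPM and PTS at 33.1 ± 1.03 TPM. In both guide groups the libraries of QDPR and PTS overlapped, so these places cannot be told apart. In the sgNS libraries PTS (31.7 ± 1.07 TPM) came before QDPR (22.2 ± 0.134 TPM), and SPR (5.82 ± 0.460 TPM) came after PCBD1 (9.56 ± 0.537 TPM). All other neighbours in these orders were separate in both libraries of their group.

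The 5 enzymes together held 91.4 and 90.4 TPM in the sgMETTL1.6 libraries, 101.5 and 101.3 TPM in the libraries labelled sgMETTL1.3 and 73.1 and 72.7 TPM in the sgNS libraries. SPR made up 16.1% and 16.9% of that sum with sgMETTL1.6, 17.7% and 15.9% in the libraries labelled sgMETTL1.3 and 7.51% and 8.44% with sgNS. The ratio of SPR to GCH1, the last step over the first, was 3.46 in each sgMETTL1.6 library, 2.96 and 2.31 in those labelled sgMETTL1.3 and 1.48 and 1.67 in the sgNS libraries.

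The difference between the guides takes no level from the control libraries, which add only to the estimate of the spread, and it was not part of the choice of SPR, so it was tested for the 5 enzymes. GCH1 was lower in the sgMETTL1.6 libraries than in those labelled sgMETTL1.3, by a log2 difference of -0.49 ± 0.086 (SE, limma adjusted p = 0.0020). The sgMETTL1.6 libraries at 4.25 and 4.41 TPM lay below both libraries labelled sgMETTL1.3, at 6.08 and 6.94 TPM. The sign and the call held in 15 alternatives of processing or left-out libraries, with differences of -0.58 to -0.30 and adjusted p of 0.0014 to 0.035. GCH1 was not tested in the alternative with a mean of at least 5 TPM, which it does not reach.

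QDPR was lower with sgMETTL1.6 by -0.18 ± 0.060 (SE, limma adjusted p = 0.0497), a call at the edge of the threshold. It held in 5 of 16 alternatives, over which the adjusted p ran from 0.0098 to 0.33. It was lost without sgMETTL1.6 replicate 1 (-0.096), without sgMETTL1.3 replicate 1 (-0.21) or 2 (-0.14), and without either sgNS replicate, which enters only through the estimate of the spread (-0.18 in both cases).

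SPR differed between the guides by -0.17 (95% interval -0.33 to -0.011, limma adjusted p = 0.11), and no alternative called it. PTS differed by -0.14 (-0.28 to 0.0085, adjusted p = 0.15) and PCBD1 by 0.097 (-0.051 to 0.25, adjusted p = 0.32). PTS passed only without sgMETTL1.6 replicate 1 (-0.25, adjusted p = 0.017), the library in which it was higher of the pair. So 2 of the 5 enzymes were called, both lower, where 23.0% of all genes were called, 7.23% higher and 15.8% lower. That split depends on scaling, with 789 genes higher and 1721 lower as deposited and 1118 higher and 781 lower after median-ratio scaling.

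**Figure D3:**
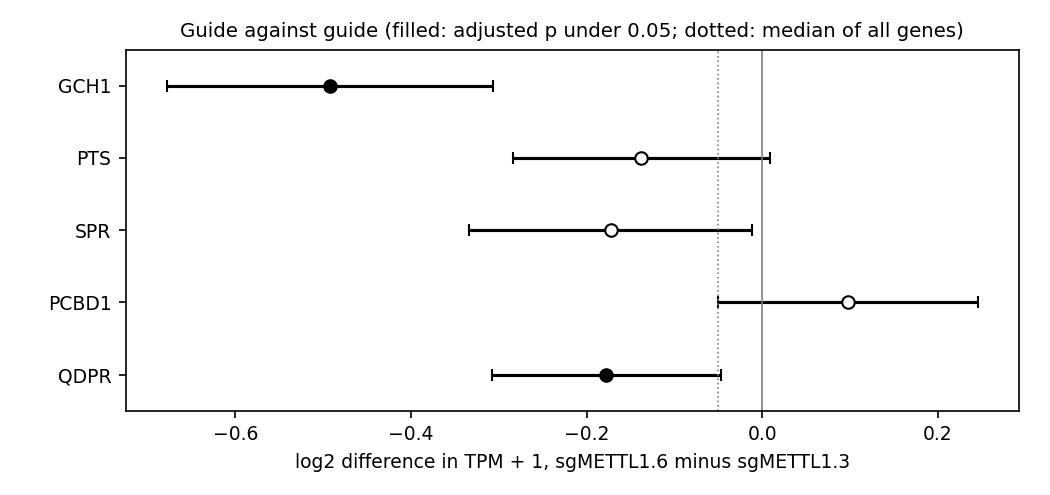
Log2 difference in TPM + 1 between the guides, sgMETTL1.6 minus sgMETTL1.3, with 95% intervals from limma. Filled points passed the adjusted p threshold, and the dotted line is the median of all genes (-0.050). GCH1 stands at -0.49, while the intervals of PTS and PCBD1 take in 0.

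The genes around the pathway were examined by lists of its control and salvage, its substrate and its users. Of the control and salvage list 9 of 9 genes had a row and 7 were tested, of which 2 rose and 2 fell with the guides against sgNS (median log2 change -0.0046, against 0.023 over all genes). Over all genes tested, 59.4% were called in this comparison, 32.6% higher and 26.8% lower. GCHFR, the protein through which the cofactor and phenylalanine control GCH1, stood at 38.87 and 37.35 TPM in the sgMETTL1.6 libraries, 45.48 and 48.88 TPM in those labelled sgMETTL1.3 and 36.77 and 34.48 TPM in the sgNS libraries. It rose by 0.25 ± 0.046 over both guides (SE, limma adjusted p = 0.00052), with 0.095 for sgMETTL1.6 (adjusted p = 0.16) and 0.40 in the libraries labelled sgMETTL1.3 (adjusted p = 3.5e-05). Between the guides it was lower with sgMETTL1.6, by -0.30 (adjusted p = 0.0022). CBR1, a carbonyl reductase that can also reduce pterin intermediates, rose by 0.34 (adjusted p = 4.7e-06).

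AKR1B1, an aldose reductase with a like side activity, fell by 0.25 on the log2 scale (limma adjusted p = 4.0e-05). PCBD2, the paralog of PCBD1, was at -0.013 (adjusted p = 0.88) and CBR3 at -0.0046 (adjusted p = 0.96). Between the guides CBR3 was higher with sgMETTL1.6, by 0.39 (adjusted p = 0.0071, and 0.072 without sgMETTL1.3 replicate 1). DNAJC12, a co-chaperone of the aromatic amino acid hydroxylases, was under the filter, at 0.33 and 0.30 TPM with sgMETTL1.6, 0.06 and 0.12 TPM in the libraries labelled sgMETTL1.3 and 1.08 and 1.05 TPM with sgNS. AKR1C3 did not pass 0.30 TPM in any library.

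GTP is the substrate of GCH1. Of 6 genes for its last steps, 4 rose with the guides and none fell (median log2 change 0.16). That is 66.7% called, beside 59.4% of all genes. IMPDH1, one of the enzymes that commit purines to the guanine branch, stood at 102.91 and 113.94 TPM in the sgMETTL1.6 libraries, 121.25 and 121.19 TPM in those labelled sgMETTL1.3 and 69.76 and 77.01 TPM in the sgNS libraries. That was a log2 change of 0.64 ± 0.047 (SE, limma adjusted p = 1.4e-07). NME1, a nucleoside diphosphate kinase, rose by 0.44 (adjusted p = 8.0e-09) and GUK1, the guanylate kinase, by 0.23 (adjusted p = 0.00012). NME2 rose by 0.086 (adjusted p = 0.0089), a call lost under quantile normalization (0.00076, adjusted p = 0.98), without ribosomal protein genes (adjusted p = 0.075), without the variance trend (adjusted p = 0.095) and without sgNS replicate 2 (adjusted p = 0.10). By guide, NME2 passed with sgMETTL1.6 (0.11, adjusted p = 0.0047) and not in the libraries labelled sgMETTL1.3 (0.057, adjusted p = 0.0997). The guides did not differ for NME2 in the direct limma test (sgMETTL1.6 minus sgMETTL1.3 0.057, adjusted p = 0.16), which passed in 3 of 16 alternatives. IMPDH2 (0.031, adjusted p = 0.33) and GMPS (-0.0082, adjusted p = 0.83) did not pass.

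Enzymes that use the cofactor were nearly absent. Of 8 genes, TH, TPH2, NOS1, NOS2 and AGMO were at or under 0.03 TPM in every library, and NOS3 lay between 0.09 and 0.24 TPM. TPH1, a tryptophan hydroxylase, was the single tested user, at 1.53 and 1.46 TPM with sgMETTL1.6, 1.66 and 1.24 TPM in the libraries labelled sgMETTL1.3 and 1.80 and 1.90 TPM with sgNS. Its log2 change was -0.21 (limma adjusted p = 0.091), and it passed without the variance trend (adjusted p = 0.040) or without sgMETTL1.3 replicate 1 (-0.27, adjusted p = 0.041).

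**Figure D4:**
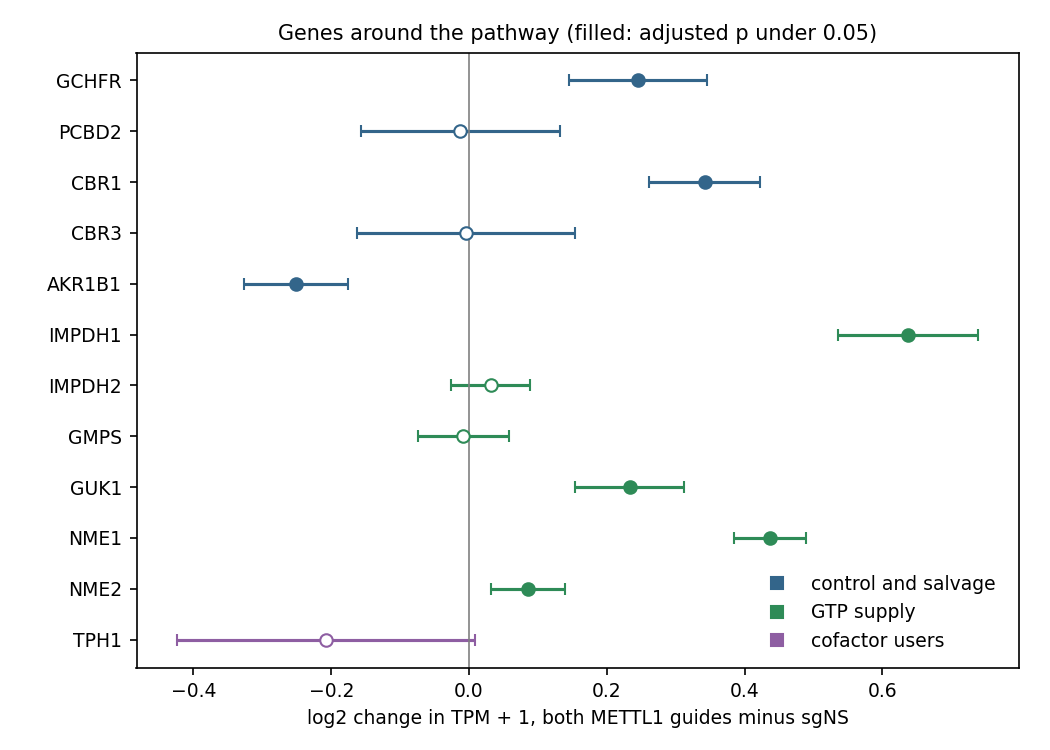
Log2 change in TPM + 1, both METTL1 guides minus sgNS, with 95% intervals from limma, for 12 tested genes of 3 lists around the pathway. Filled points passed the adjusted p threshold. Among those shown IMPDH1 stands at 0.64 and AKR1B1 at -0.25.

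Interferon gamma signalling, the known inducer of GCH1 in myeloid cells, had 7 tested genes of 8, of which 1 rose and 4 fell over both guides (median log2 change -0.11), 71.4% called beside 59.4% of all genes. By guide, 4 were lower with sgMETTL1.6, where 25.3% of all genes were, and 1 in the libraries labelled sgMETTL1.3, where 24.2% were. IFNGR1, a receptor chain, rose by 0.12 (limma adjusted p = 0.0089, and 0.061 after quantile normalization). IRF1, a transcription factor of the response, fell by 0.16 (adjusted p = 0.0097), with -0.23 for sgMETTL1.6 (adjusted p = 0.0030) and -0.087 in the libraries labelled sgMETTL1.3 (adjusted p = 0.18). SOCS1, a feedback inhibitor, fell by 0.28 (adjusted p = 0.013). Without sgNS replicate 2 neither IFNGR1 (adjusted p = 0.090) nor IRF1 (adjusted p = 0.070) passed, and SOCS1 did not pass without sgNS replicate 1 (-0.17, adjusted p = 0.22), after quantile normalization (-0.22, adjusted p = 0.063) or when low genes were kept (-0.28, adjusted p = 0.064). Between the guides limma called 0 of the 7, beside 23.0% of all genes, and 2 of the 7 had an unadjusted p under 0.05.

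SPR and QDPR belong to the short-chain dehydrogenases, of which 31 others were tested. With the guides 11 rose and 8 fell (median log2 change 0.067), 61.3% called. DCXR, a xylulose reductase, rose by 0.52 (limma adjusted p = 4.3e-07) and CBR1 by 0.34, while HSD17B11, a lipid droplet enzyme, fell by 0.44 (adjusted p = 1.6e-06). The ferroptosis list, of interest because GCH1 is known to protect lipids from peroxidation, had 2 genes that rose and 3 that fell of 7 (median log2 change -0.056), 71.4% called. SLC7A11, the cystine carrier, fell by 2.05 (adjusted p = 1.5e-12), ACSL4, which primes lipids for peroxidation, by 0.29 (adjusted p = 7.9e-05). LPCAT3, which loads polyunsaturated fatty acids into phospholipids, was at -0.28 over both guides (adjusted p = 0.00016). It stood at 45.19 and 49.13 TPM with sgMETTL1.6, 33.29 and 33.52 TPM in the libraries labelled sgMETTL1.3 and 46.98 and 50.10 TPM with sgNS, so the sgMETTL1.6 libraries overlapped the controls (-0.041, adjusted p = 0.54) and those labelled sgMETTL1.3 were lower (-0.53, adjusted p = 2.9e-06). Over all 6 lists 36 of 57 tested genes were called, 63.2%, a share near the 59.4% of all genes.

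Between the guides, 17 of the 57 genes around the pathway were called, 29.8% beside 23.0% of all genes, with 8 higher and 9 lower in the sgMETTL1.6 libraries. This split depends on scaling, with 11 higher and 5 lower after median-ratio scaling and 9 higher and 5 lower after quantile normalization. Without sgMETTL1.3 replicate 1, sgMETTL1.3 replicate 2 or sgMETTL1.6 replicate 1 the number was 10 in each case.

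The genes with the values most like those of SPR over the 6 libraries were found by the Euclidean distance between log2(TPM + 1) values after taking off each gene's own mean. They were HSPH1 (distance 0.23), HSPA8 (0.32), GPR183, an oxysterol receptor (0.33), HYAL2, a hyaluronidase (0.33), and ADAMTS1 (0.35). HSPH1 stood at 107.46 and 100.14 TPM with sgMETTL1.6, 114.07 and 109.68 TPM in the libraries labelled sgMETTL1.3 and 46.66 and 45.71 TPM with sgNS. The genes nearest to GCH1 were the calcium-binding proteins S100A9 (0.10) and S100A8 (0.14). S100A9 stood at 4430 and 4441 TPM with sgMETTL1.6, 6107 and 6419 TPM in the libraries labelled sgMETTL1.3 and 3867 and 3694 TPM with sgNS, the same order of groups as GCH1. Nearest to QDPR were ARMC7 (0.047) and NTMT1, an N-terminal methyltransferase (0.058), to PCBD1 ZNF438 (0.061) and CHST2, a sulfotransferase (0.067), and to PTS ZMAT3, an RNA-binding protein (0.060), and C7orf31 (0.070). Distances are small for genes that vary little, so they are not comparable between enzymes, and 6 libraries in 3 groups give many genes a like pattern. Since the distance uses the values that chose SPR, its nearest genes are others with a large increase, and nothing is supported with them. Likewise, a gene picked as near to GCH1 shares its order of groups by that choice.

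**Figure D5:**
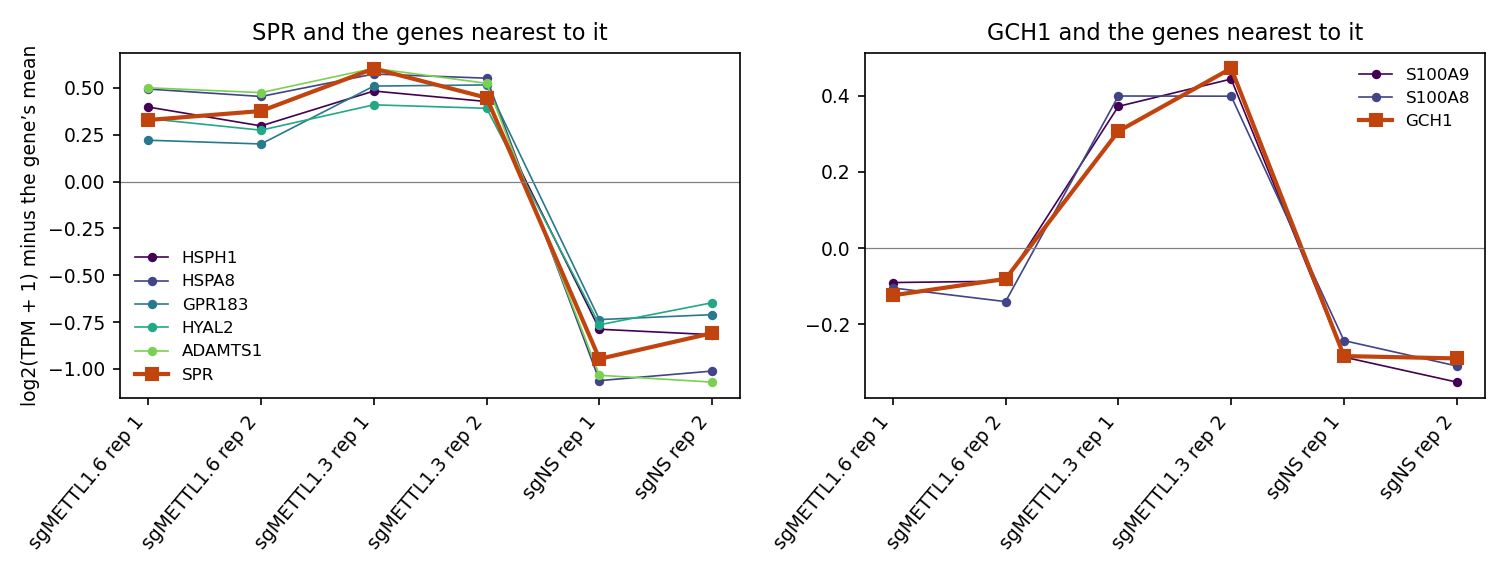
log2(TPM + 1) minus the gene's own mean in each of 6 libraries, for SPR with its 5 nearest genes and for GCH1 with its 2 nearest. Lines only join the points of a gene. SPR and its neighbours are high in all guide libraries, while GCH1, S100A9 and S100A8 are highest in the libraries labelled sgMETTL1.3.

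Genes beside SPR on chromosome 2 were also read. Of the nearest 3 with a row on each side, DYSF, CYP26B1, EXOC6B, EMX1 and RAB11FIP5 were at or under 0.56 TPM in every library. SFXN5 (72942036 to 73075619, minus strand), a mitochondrial carrier of the sideroflexin family, stood at 10.88 and 10.67 TPM with sgMETTL1.6, 10.85 and 10.51 TPM in the libraries labelled sgMETTL1.3 and 9.40 and 9.53 TPM with sgNS. It rose by 0.16 (limma adjusted p = 0.022), a call lost without sgNS replicate 1 (adjusted p = 0.12), without sgNS replicate 2 (adjusted p = 0.077) and without sgMETTL1.3 replicate 1 (adjusted p = 0.056).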

How the data were processed

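Poly(A)+ RNA libraries of Mono-Mac-6 cells were compared, 2 for each of 3 groups. The authors deposited TPM in 1 table of 18806 symbols, made with RSEM 1.2.31 on GRCh38 per the submitters' processing notes. The sources used here name no aligner, annotation or strand setting. TPM keeps no depth, so no counting interval can be given. Column names tied each of the 6 columns to its sample.

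Values were analysed as log2(TPM + 1) with limma 3.58.1 in R 4.3.3, for the 10911 genes whose mean reached 1 TPM. All groups entered 1 model with a variance trend (3 residual and 9.84 prior degrees of freedom), and the method was tested on simulated data. The 5 enzymes and all lists were chosen with earlier results of these data known. The text names the enzymes, the genes of the control and salvage, GTP supply and user lists (some are not reported here, though the counts include them), the 3 genes with the lowest p of each other list, the nearest patterns, the genes next to SPR on its chromosome and those next to it in the order of change. LYZ, CD14, CSF1R and PECAM1 are named from the marker lists. Older symbols were matched for 2 genes. Of the 71 listed genes around the pathway, 70 were matched to a row, and 57 reached the filter and were tested. Promoters came from RefSeq tables, which held 4 of the 5 enzymes. Alternatives covered pseudocounts, filters, scaling, the variance trend, the replicate number and left-out libraries.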

Additional observations from a re-analysis of the deposited data

Results flagged for a closer look

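Only the 5 enzymes and the control and salvage, GTP supply and user lists were searched here. Of these, 6 genes differed in the test of guide against guide (limma, sgMETTL1.6 minus sgMETTL1.3, log2 scale). They were 2 of 5 enzymes, 2 of 7 tested control and salvage genes, 2 of 6 GTP supply genes and 0 of 1 tested user. Over all genes 23.0% were called. The levels of the shared control libraries drop out of this test, and these libraries add only to the estimate of the spread. GCH1 differed by -0.49, QDPR by -0.18 (adjusted p = 0.0497) and GCHFR by -0.30, all lower with sgMETTL1.6. CBR3 differed by 0.39, higher with sgMETTL1.6, and passed in 14 of 16 alternatives. IMPDH1 differed by -0.16 (adjusted p = 0.049) and passed in 8 of 16 alternatives, and IMPDH2 differed by -0.09 (adjusted p = 0.044) and passed in 4 of 16. GCHFR passed in all 16, with adjusted p of 0.0010 to 0.038.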

How the results depend on the processing

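The SPR difference was 1.25 to 1.39 when single libraries were left out and 0.96 with a pseudocount of 5. The number of enzymes called between the guides was 2. It was 1 with no filter on low values, with a mean of at least 5 TPM (GCH1 was then not tested), with quantile normalization, with median-ratio scaling, without ribosomal protein genes, without the variance trend and with only the groups compared, and ran from 1 to 2 over left-out libraries. Of the genes around the pathway, 17 were called between the guides, 10 with no filter on low values, 11 without the variance trend and 10 to 17 over left-out libraries. Against sgNS 36 were called, and 29 to 37 over all alternatives. Among all genes 2510 were called between the guides, 3615 with the replicate number as a block, 1023 with no filter, 1409 without the variance trend, 1267 and 1214 without sgMETTL1.3 replicate 1 or 2 and 1439 without sgMETTL1.6 replicate 1. The cause of these shifts was not tested. With the replicate number as a block, 2 enzymes were called between the guides, SPR differed by 1.32, and 37 and 24 genes around the pathway were called against sgNS and between the guides. Among all genes 6484 were called against sgNS, and 6976 with this block. Deviations of same-numbered libraries correlated at -0.0050 (sgMETTL1.3 with sgNS), 0.21 (sgMETTL1.6 with sgNS) and 0.14 (sgMETTL1.6 with sgMETTL1.3). These values do not settle whether the numbers pair the libraries, and the main model left the numbers out. Only the comparison of guides was run with the groups compared alone, since the other uses all groups. No result changed sign where it was called. Unknown depth limits the genes near 1 TPM.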

Other observations

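All 7 genes of the ferroptosis list were called between the guides, 2 higher and 5 lower with sgMETTL1.6 (limma, 23.0% of all genes called). The number was 4 without sgMETTL1.3 replicate 2, 5 without sgMETTL1.6 replicate 1, and 4 to 7 over all alternatives. AIFM2, a reductase that protects membranes from lipid peroxidation and that was singled out after its values were seen, stood at 7.78 and 8.18 TPM in the sgMETTL1.6 libraries and at 11.25 and 10.55 TPM in those labelled sgMETTL1.3, beside 7.28 and 7.33 TPM with sgNS. The guides differed by -0.41 (adjusted p = 0.0019, and 0.00099 to 0.033 over the alternatives), and the order of the groups was that of GCH1. SLC7A11 stood at 13.80 and 12.74 TPM with sgMETTL1.6 and 21.94 and 21.13 TPM in the libraries labelled sgMETTL1.3, a difference of -0.66 (adjusted p = 8.1e-06). LPCAT3 (0.48) and ACSL4 (0.21) were higher with sgMETTL1.6.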
